A study of Mus musculus with 6 samples.

Results

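The 10 genes described here are p53 itself (Trp53), its regulators Mdm2, Mdm4 and Cdkn2a, and 6 genes that p53 is known to activate. The 6 are Cdkn1a, Ccng1, Trp53inp1, Zmat3, Sesn1 and Plk2, grouped here as arrest targets. The 10 genes were matched by symbol among the 56734 gene symbols of the count table. All 10 were found, and all 10 were among the 17718 genes with enough counts to be tested. Polyadenylated RNA came from cultured B16-OVA cells, a mouse melanoma line that carries the model antigen ovalbumin, as 3 libraries of genotype WT and 3 of genotype Ythdf2-KO. The WT titles carry the tag gNC and the Ythdf2-KO titles gY2, tags that the labels do not explain. The labels name no treatment and do not say whether a genotype is 1 clone or whether its libraries came from separate cultures, so the p-values measure the spread between these libraries. YTHDF2, the protein that the knockout targets, binds mRNAs carrying N6-methyladenosine and is known to promote their decay.

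p53 is a transcription factor that cells stabilise under DNA damage and other stress. MDM2 binds p53 and marks it for destruction, MDM4 is a related protein that blocks its activity, and the ARF product of Cdkn2a restrains MDM2. p53 activates Mdm2 in turn, which closes a feedback loop, and it activates Cdkn1a, whose product p21 inhibits cyclin-dependent kinases. In melanocytic cells the Cdkn2a locus is well known as a tumor suppressor.

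The 10 mRNAs did not move together. Relative to WT, Ccng1, Trp53inp1, Zmat3, Sesn1 and Cdkn2a were higher in Ythdf2-KO, while Trp53, Mdm4, Cdkn1a and Plk2 were lower, and Mdm2 did not pass the test. The changes ran from a 3.60-fold rise of Trp53inp1 to a 1.83-fold fall of Plk2, and the other 7 called genes changed by at most 1.40-fold. A gene was called at a Benjamini-Hochberg adjusted p under 0.05 in edgeR's quasi-likelihood test over all genes tested. By that rule 9 of the 10 genes were called, against 49.9% of all genes tested. In the higher direction 5 of 10 were called against 24.1% of all genes, and in the lower direction 4 of 10 against 25.8%. The counts-per-million (CPM, scaled by TMM factors) of the 2 genotypes did not overlap for the same 9 genes, and did not overlap for 55.9% of all genes tested. Genes of few counts lower the share called over all genes. Among the 10507 genes with a mean of at least 5 CPM, which include all 10, 3410 were higher and 3524 lower, a larger share. The median log2 fold change of the 10 genes was 0.13, beside -0.0053 over all genes. With upper-quartile scaling 59.2% of all calls were higher in Ythdf2-KO, compared with 48.3% under TMM scaling, and the 9 calls among these genes kept their direction under both.

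Totals were 55660473 to 69497273 counts per library, at which a count of 3 equals 0.0432 to 0.0539 CPM. Ythdf2 mRNA itself was 1.23-fold lower in Ythdf2-KO, at 101 ± 2.04 against 124 ± 0.901 CPM (SD, n = 3), with no overlap. Whether the protein was lost cannot be read from gene counts. Mitochondrially encoded RNA took 1.08 to 1.33% of the counts in WT and 1.57 to 1.82% in Ythdf2-KO, and the part of this in the results was not tested. All 9 calls were also made with the mitochondrial and the 20 most abundant genes left out of the scaling. The 7 melanocyte markers examined were present in every library, with a summed level of 237 to 241 CPM in WT and 1400.5 to 1431 CPM in Ythdf2-KO, and all 7 rose. The 5 leukocyte markers summed to 0.244 to 0.432 CPM in WT and 0.0324 to 1.24 CPM in Ythdf2-KO, and they did not move together. Ptprc held 74 counts in Ythdf2-KO replicate 3 and 0 to 6 in the other libraries. Adgre1 went the other way, with 22, 10 and 16 counts in WT against 2, 2 and 4 in Ythdf2-KO. The 3 endothelial markers summed to 2.49 to 2.63 CPM in WT and 1.59 to 2.14 CPM in Ythdf2-KO. The 3 epithelial ones summed to at most 0.129 CPM. The 4 genes used as fibroblast markers summed to 819 to 843 CPM in WT and 650.0 to 664 CPM in Ythdf2-KO, with Pdgfra and Col1a1 higher and Dcn and Lum lower. The part of cell state or of other cells in the results was not tested, and in bulk RNA fewer cells of a type and less RNA per cell cannot be told apart.

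**Figure D1:**
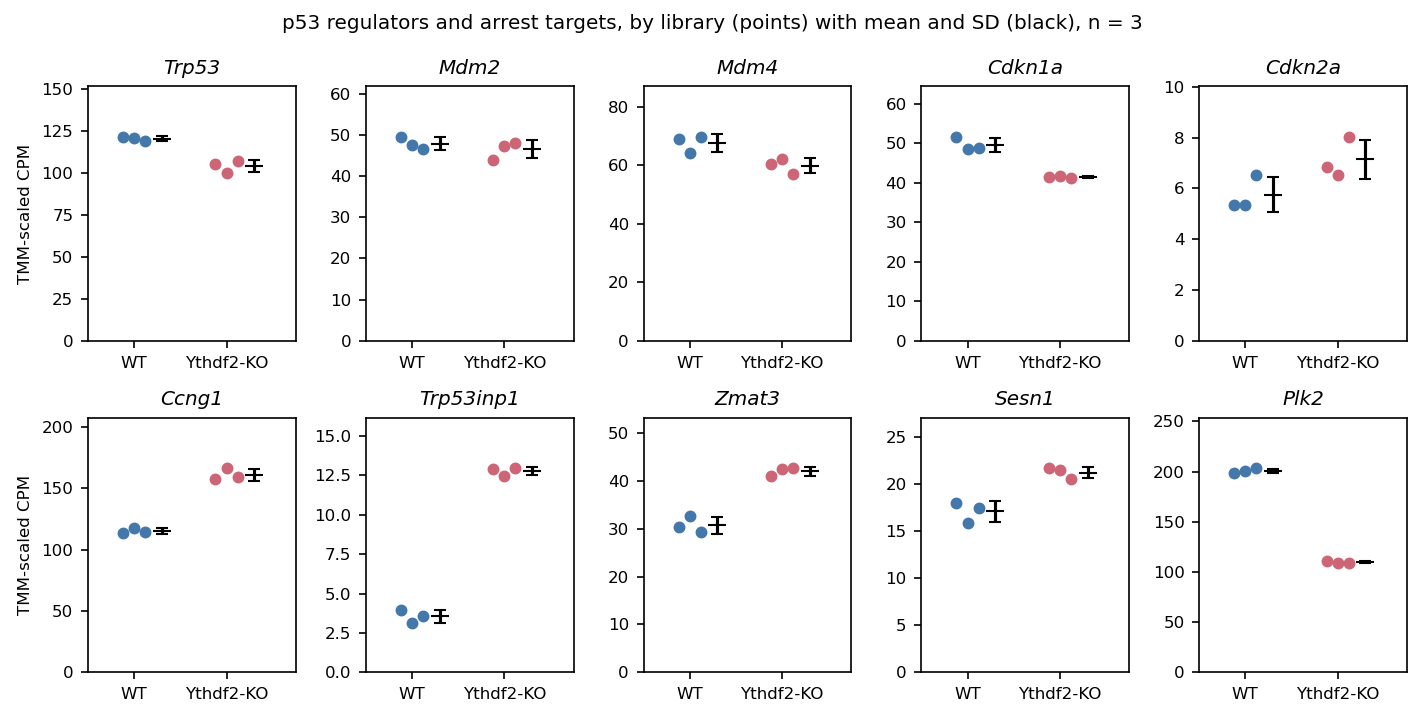
TMM-scaled CPM (vertical axes, from 0) of the 10 genes in each library; points are libraries (blue, WT; red, Ythdf2-KO) and black marks give the mean and SD of 3 libraries. The genotypes overlap for Mdm2 only; Trp53inp1 goes from 3.56 to 12.8 CPM and Plk2 from 201 to 109.7 CPM on average.

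Trp53 mRNA was slightly lower in Ythdf2-KO. The WT libraries, always listed here as replicates 1, 2 and 3, gave 122, 121 and 119 CPM, and the Ythdf2-KO libraries 105, 100.3 and 107 CPM. Every Ythdf2-KO library lay below every WT library. On the log2 scale the change was -0.21 ± 0.028 (SE, here and for the genes that follow with n = 3 per genotype; edgeR adjusted p = 1.20e-08), a 1.16-fold fall. This change was larger in size than that of 49.4% of all genes tested, and so of middling size in this comparison. The pseudogene Trp53-ps, which can share reads with Trp53, held 119 to 164 counts per library against 6200 to 8170 for Trp53.

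Mdm2, the ubiquitin ligase that limits p53 and is also its target, gave 49.5, 47.6 and 46.6 CPM in WT against 44.0, 47.3 and 48.1 CPM in Ythdf2-KO. The genotypes overlapped: replicate 1 of Ythdf2-KO was the lowest of all, and its other 2 libraries lay within the WT range. Its log2 change of -0.043 had a 95% interval of -0.12 to 0.035 (edgeR adjusted p = 0.386), so the interval holds both a small fall and a small rise. With upper-quartile scaling the sign turned, to 0.011 (edgeR adjusted p = 0.848).

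Mdm4, which encodes the p53 inhibitor also called MDMX, was lower in each Ythdf2-KO library. Its values were 69.03, 64.2 and 69.6 CPM in WT against 60.5, 62.1 and 57.1 CPM in Ythdf2-KO. The closest libraries, WT replicate 2 and Ythdf2-KO replicate 2, stood only a little apart. The fitted log2 change came to -0.18 ± 0.036 (SE; edgeR adjusted p = 5.36e-05), a 1.13-fold fall. The antisense gene Gm29257, which overlaps the Mdm4 span, held 13 to 33 counts per library against 3837 to 4775 for Mdm4.

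Cdkn2a had the largest adjusted p of the 9 called genes. One locus yields the CDK4/6 inhibitor p16INK4A and ARF, and counts per gene cannot tell these transcripts apart. The WT libraries held 298, 351 and 448 counts, or 5.36, 5.36 and 6.53 CPM, and the Ythdf2-KO libraries 469, 404 and 556 counts, or 6.86, 6.54 and 8.02 CPM. The highest WT value almost met the lowest Ythdf2-KO value, and the spread within a genotype, 11.8% of the mean in WT and 10.9% in Ythdf2-KO, was wider than for the other genes except Trp53inp1 in WT. As a log2 fold change this was 0.31 ± 0.10 (SE; edgeR adjusted p = 0.00842), a 1.24-fold rise. Without Ythdf2-KO replicate 3 it was 0.22 and did not pass (edgeR adjusted p = 0.115).

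Set against each other within a library, Trp53, Mdm2 and Mdm4 transcripts kept the same order of abundance in both genotypes. Per kilobase of annotated exon, the ratio of Mdm2 to Trp53 was 0.324, 0.312 and 0.311 in the WT libraries and 0.332, 0.375 and 0.356 in the Ythdf2-KO libraries. Every Ythdf2-KO value was above every WT value, and a two-sided exact permutation test gave p = 0.1, the smallest that 3 against 3 libraries allow. The ratio of Mdm4 to Trp53 was 0.153 ± 0.00769 in WT against 0.157 ± 0.0120 in Ythdf2-KO (SD, n = 3; exact permutation p = 0.7). That of Mdm4 to Mdm2 was 0.485 ± 0.0258 and 0.444 ± 0.0331 (SD, n = 3; exact permutation p = 0.2). The genotypes overlapped in the last 2 ratios.

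Cdkn1a and Ccng1 are both textbook p53 targets and changed in opposite directions. Cdkn1a gave 51.7, 48.5 and 48.9 CPM in WT against 41.6, 41.7 and 41.2 CPM in Ythdf2-KO. The Ythdf2-KO libraries agreed within 0.649% of their mean (SD) and all lay below WT. An opposite-strand gene, AC167363.2, overlaps the Cdkn1a span in the annotation, and reads from the 2 strands cannot be told apart here. Fitted as a log2 fold change, the difference was -0.26 ± 0.038 (SE; edgeR adjusted p = 1.06e-07), a 1.20-fold fall. Ccng1, which encodes cyclin G1, a partner of the phosphatase PP2A and of MDM2, gave 114, 118 and 114 CPM in WT against 158, 166 and 159 CPM in Ythdf2-KO. The genotypes were far apart relative to their spread. On the log2 scale the change was 0.48 ± 0.026 (SE; edgeR adjusted p = 1.75e-20), a 1.40-fold rise.

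Promoter windows from RefSeq (GRCm38.p6), which run from 250 bases before to 50 after an annotated transcript start, were available for 8 of the 10 genes. They were searched for the consensus p53 response element in its unspaced form of 20 bases, which reads the same on both strands. Those of Cdkn1a and Ccng1 are shown because they held the closest matches, each with 1 letter off the consensus, and because these genes moved in opposite directions. The match, in capitals, lies 51 to 32 bases before the upstream start of Cdkn1a (chr17:29090729-29091028, plus strand) and 195 to 176 bases before the start of Ccng1 (chr11:40755237-40755536, minus strand).
Cdkn1a: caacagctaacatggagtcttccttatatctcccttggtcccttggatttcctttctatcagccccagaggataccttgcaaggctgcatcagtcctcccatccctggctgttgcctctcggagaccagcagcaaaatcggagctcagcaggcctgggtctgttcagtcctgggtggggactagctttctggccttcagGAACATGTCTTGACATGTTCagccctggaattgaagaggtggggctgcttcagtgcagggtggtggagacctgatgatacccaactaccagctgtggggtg
Ccng1: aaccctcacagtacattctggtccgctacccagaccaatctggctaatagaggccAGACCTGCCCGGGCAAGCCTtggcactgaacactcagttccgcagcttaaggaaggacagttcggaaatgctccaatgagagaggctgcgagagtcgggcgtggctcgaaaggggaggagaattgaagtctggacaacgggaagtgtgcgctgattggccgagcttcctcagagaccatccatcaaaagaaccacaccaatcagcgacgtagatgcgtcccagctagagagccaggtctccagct

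Of 32851 promoter windows in the table, 29 (0.0883%) held a match with at most 1 letter off. The best matches of Trp53, of 1 of the 2 Mdm4 windows and of 1 of the 2 Sesn1 windows had 3 letters off, and 6.29% of all windows held a match with at most 3 off. In the remaining windows, which include the other Cdkn1a window (chr17:29093519-29093818) and all those of Mdm2, Cdkn2a and Plk2, 5 or more letters were off. RefSeq windows of Trp53inp1 and Zmat3 were not used here. A match is a description of letters, not a sign that p53 bound there in these cells. The search covered only these windows and the unspaced form. The lack of a close match therefore does not show that a gene has no p53 response element.

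Trp53inp1 showed the strongest change of the 10 genes. It encodes a stress protein that acts with the kinase HIPK2 on p53 and also takes part in autophagy. The WT libraries held 221, 205 and 244 counts, or 3.98, 3.13 and 3.56 CPM, and the Ythdf2-KO libraries 881, 771 and 896 counts, or 12.9, 12.5 and 12.9 CPM. The lowest Ythdf2-KO library was thus well above the highest WT library. The fitted log2 change came to 1.85 ± 0.091 (SE; edgeR adjusted p = 4.90e-22), larger in size than that of 95.4% of all genes tested.

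Zmat3 and Sesn1 rose by smaller amounts. Zmat3, which encodes a zinc-finger protein that binds RNA, gave 30.3, 32.5 and 29.2 CPM in WT against 40.9, 42.5 and 42.5 CPM in Ythdf2-KO. As a log2 fold change this was 0.45 ± 0.043 (SE; edgeR adjusted p = 2.17e-12), a 1.37-fold rise with no overlap of the genotypes. Sesn1 encodes a sestrin, a stress-induced inhibitor of mTORC1 signalling. It gave 17.95, 15.9 and 17.5 CPM in WT against 21.7, 21.5 and 20.5 CPM in Ythdf2-KO, again without overlap. A lowly counted gene on the same strand, 9930024M15Rik, overlaps the Sesn1 span and held 2 to 10 counts per library. Fitted as a log2 fold change, the difference was 0.31 ± 0.058 (SE; edgeR adjusted p = 1.30e-05), a 1.24-fold rise.

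Plk2 fell the most. It encodes a polo-like kinase that acts in centriole duplication and is induced by serum as well as by p53. The WT libraries gave 198, 200.2 and 203 CPM and the Ythdf2-KO libraries 111, 109 and 109 CPM. Replicates agreed within 1.18% of the mean in WT and 0.746% in Ythdf2-KO (SD), a narrow spread beside the gap between genotypes. On the log2 scale the change was -0.87 ± 0.024 (SE; edgeR adjusted p = 2.03e-31), a 1.83-fold fall, larger in size than the change of 87.7% of all genes tested. The ratio of Plk2 to Cdkn1a per kilobase of exon went from 3.20 ± 0.137 to 2.09 ± 0.0178 (SD, n = 3; exact permutation p = 0.1, the smallest possible), and its values in the genotypes did not overlap.

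**Figure D2:**
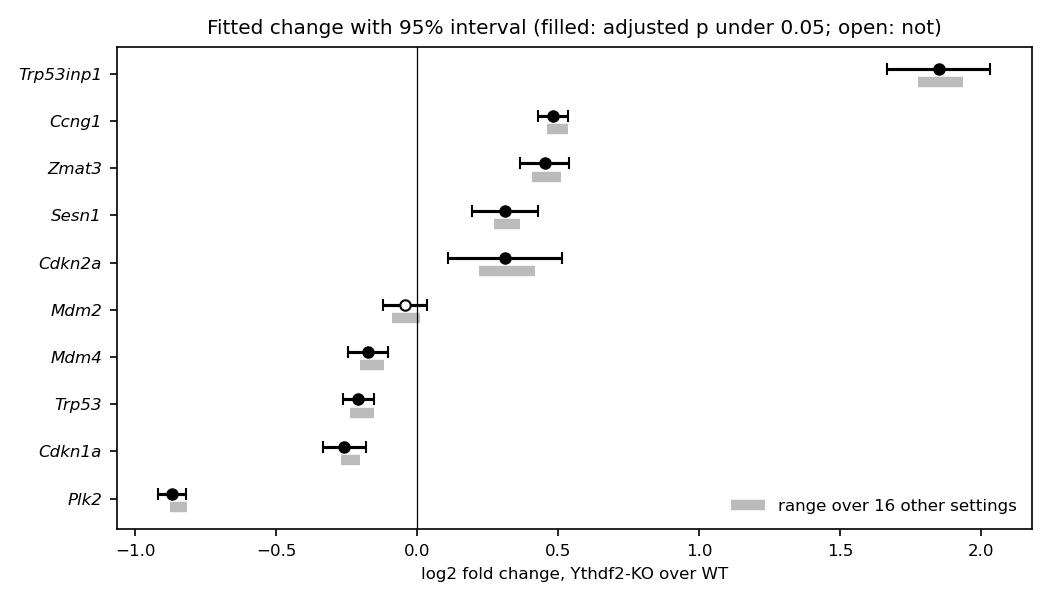
Fitted log2 fold change, Ythdf2-KO over WT (horizontal axis), of each gene with its 95% interval; filled points passed at an adjusted p under 0.05, and grey bars span the estimates under 16 other settings of scaling, filter, tool, offset, block or left-out libraries. The grey bar crosses 0 for Mdm2, from -0.090 to 0.011, and stays on its side of 0 for the other 9 genes.

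On a scale of CPM per kilobase of annotated exon, which allows genes to be compared, Plk2 was the most abundant of the 10 in WT at 44.7 ± 0.525 (SD, n = 3). Ccng1 followed at 32.8 ± 0.635 and Trp53 at 29.8 ± 0.335. In Ythdf2-KO the order at the top was different: Ccng1 stood at 45.8 ± 1.31, Trp53 at 25.8 ± 0.896 and Plk2 at 24.4 ± 0.182. Trp53 and Plk2 there differed by little more than their spread. Cdkn1a and Mdm2 came next in both genotypes, at 14.0 ± 0.484 and 9.42 ± 0.289 in WT against 11.7 ± 0.0758 and 9.14 ± 0.427 in Ythdf2-KO. Cdkn2a, Mdm4 and Sesn1 formed a middle group in WT at 4.91 ± 0.579, 4.57 ± 0.2003 and 4.30 ± 0.274, where neighbours did not differ beyond their spread. In Ythdf2-KO the same genes stood at 6.09 ± 0.666, 4.05 ± 0.175 and 5.33 ± 0.156, so that Mdm4 came below Sesn1. Zmat3 and Trp53inp1 were lowest in both genotypes, at 2.68 ± 0.148 and 0.549 ± 0.0654 in WT against 3.67 ± 0.0799 and 1.97 ± 0.0385 in Ythdf2-KO. These lengths join all annotated exons of a gene. The order depends on the length used. Per kilobase of the longest annotated transcript, Trp53 at 36.9 ± 0.414 stood above Ccng1 at 32.8 ± 0.635 in WT, and Plk2 at 39.2 ± 0.293 above Trp53 at 31.9 ± 1.11 in Ythdf2-KO (SD, n = 3). Mdm4 then stood above Cdkn2a in WT, at 9.52 ± 0.417 against 6.43 ± 0.758. In Ythdf2-KO Mdm4 was then at 8.43 ± 0.365, Cdkn2a at 7.98 ± 0.872 and Sesn1 at 5.57 ± 0.163, so that Mdm4 did not come below Sesn1. Plk2 in WT and Ccng1 in Ythdf2-KO were the highest with either length.

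**Figure D3:**
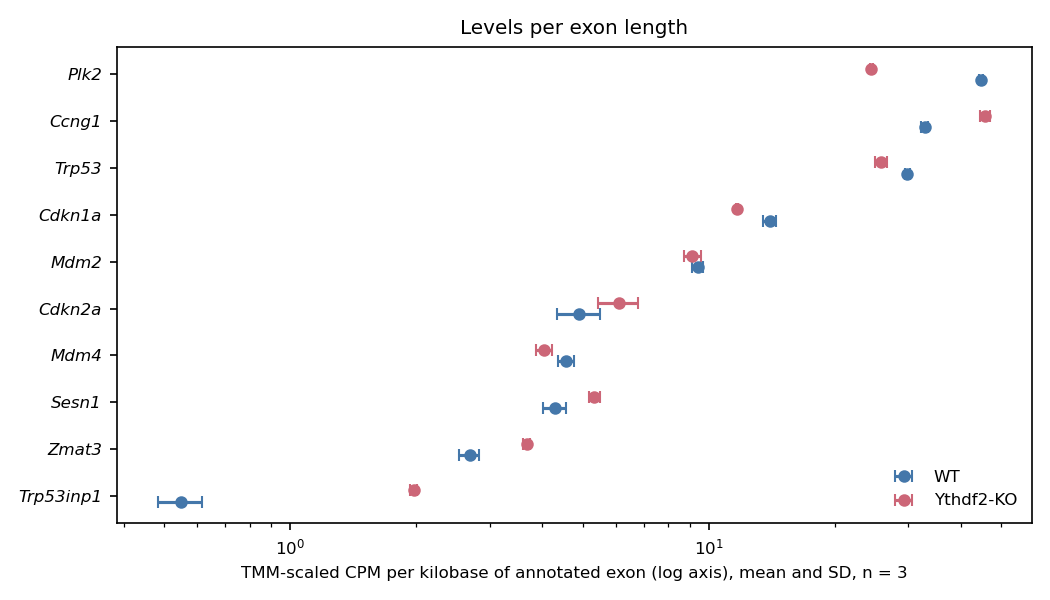
TMM-scaled CPM per kilobase of annotated exon (horizontal log axis) of the 10 genes in WT (blue) and Ythdf2-KO (red), mean and SD of 3 libraries. Plk2 is the highest in WT at 44.7 and Ccng1 in Ythdf2-KO at 45.8, and Trp53inp1 is the lowest in both.

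Paralogs of these genes did not always follow them. Of 10 tested paralogs 4 rose, 5 fell and Plk3 did not pass, at a median log2 change of 0.0062, where 24.1% of all genes rose and 25.8% fell. The 4 include Trp63, which passed the filter for testing only through its Ythdf2-KO counts. All 3 sestrin genes were higher: Sesn3, which FOXO factors also activate, went from 28.8 ± 1.12 to 49.6 ± 0.762 CPM (SD, n = 3; edgeR adjusted p = 3.44e-21), and Sesn2, which ATF4 also activates, from 51.2 ± 1.55 to 58.4 ± 3.29 CPM (SD, n = 3; edgeR adjusted p = 3.34e-05). Sesn3 thus rose 1.72-fold and Sesn2 1.14-fold, beside 1.24-fold for Sesn1. Among the polo-like kinases the mitotic kinase gene Plk1 fell 1.24-fold and Plk4, which encodes the starter of centriole duplication, 1.32-fold, to 78.1 ± 3.17 and 50.1 ± 0.284 CPM (SD, n = 3). Plk3 was at 16.6 ± 1.43 CPM in WT against 18.2 ± 1.82 CPM in Ythdf2-KO (SD, n = 3; edgeR adjusted p = 0.113). It passed, as higher, under 4 of 16 other settings.

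The cyclin G genes went opposite ways, with Ccng2 falling 1.52-fold from 23.1 ± 0.601 to 15.2 ± 0.758 CPM (SD, n = 3; edgeR adjusted p = 2.41e-12) where Ccng1 rose. Trp53inp2, which encodes an autophagy protein, rose 1.15-fold from a much higher count level than Trp53inp1, from 134 ± 3.71 to 155 ± 1.78 CPM (SD, n = 3). The Zmat3 relatives Zmat1 and Zmat2 fell 1.60- and 1.09-fold, and the call of Zmat2 was lost under 5 of 16 other settings. Trp63, which encodes the p53 relative p63, was near the limit of detection with 2, 0 and 4 counts in WT against 12, 16 and 17 in Ythdf2-KO. It was called higher (edgeR adjusted p = 0.00113). It passed the filter for testing only through its Ythdf2-KO counts, so this call is a description. Trp73 had 0 counts in WT and 2, 0 and 7 in Ythdf2-KO, too few for the test.

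Among 6 other CDK inhibitor genes 1 rose, 1 fell and 4 did not pass, at a median log2 change of 0.067. The share called was 33.3%, beside 49.9% of all genes tested. Cdkn2b, which encodes p15INK4B and adjoins Cdkn2a, rose 1.35-fold from 24.4 ± 1.15 to 32.9 ± 0.507 CPM (SD, n = 3; edgeR adjusted p = 1.01e-10). Cdkn2d, which encodes p19INK4D, fell 1.93-fold from 32.4 ± 1.70 to 16.8 ± 0.259 CPM (SD, n = 3; edgeR adjusted p = 2.12e-20). Cdkn1b, the p27 gene, was at 80.8 ± 3.31 and 83.9 ± 1.02 CPM and Cdkn2c at 36.4 ± 0.553 and 38.4 ± 1.69 CPM in WT and Ythdf2-KO (SD, n = 3), and neither passed. Under 4 other settings 2 or 3 of the 6 genes were called higher, among them Cdkn1b and Cdkn2c with upper-quartile scaling.

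Of 10 cyclin and CDK genes whose products p21 restrains, 4 rose and 5 fell, at a median log2 change of -0.040, again beside 24.1% and 25.8% of all genes. Ccnd2, Cdk2, Cdk4 and Ccnd1 rose 1.39-, 1.35-, 1.08- and 1.04-fold, and Ccne2, Cdk1, Ccna2, Ccnd3 and Ccne1 fell 1.37-, 1.31-, 1.23-, 1.10- and 1.09-fold. The rise of Ccnd1 was lost under 6 of 16 other settings and the fall of Ccne1 under 1, upper-quartile scaling. The G1 cyclin gene Ccnd2 went from 346 ± 0.818 to 481 ± 7.48 CPM and the mitotic kinase gene Cdk1 from 146 ± 2.50 to 112 ± 3.58 CPM (SD, n = 3).

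Among 19 genes for kinases, phosphatases and other regulators of p53, 3 rose and 8 fell, at a median log2 change of -0.028. The share called, 57.9%, was near the 49.9% of all genes tested. Prkdc and Hipk2, which encode kinases that act on p53 after DNA damage, rose 1.42- and 1.20-fold, and Trp53bp1, which encodes the repair protein 53BP1, 1.10-fold. Atr, which encodes the kinase of replication stress, and Rpl5, which encodes a ribosomal protein that can bind MDM2, each fell 1.16-fold. With upper-quartile scaling the balance turned to 6 higher and 3 lower. Of the falls, that of Cop1 was lost under 12 of 16 other settings and those of Chek1 and Npm1 under 4 each. The falls of Ep300 and Rpl11 were lost under 1, upper-quartile scaling.

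Genes that p53 is known to activate went both ways, as the 6 targets above did. Of 11 apoptosis genes 8 were tested, and of these 4 rose and 2 fell, the median change being 0.10 (log2). The share called was 75%, beside 49.9% of all genes tested. Bbc3, which encodes the BH3-only protein PUMA, rose 1.64-fold from 10.5 ± 1.02 to 17.1 ± 1.58 CPM (SD, n = 3; edgeR adjusted p = 8.40e-11). Apaf1, Pidd1 and Aen rose 1.23-, 1.27- and 1.10-fold, and the call of Aen was lost without replicate 3 of Ythdf2-KO or of both genotypes. The death receptor gene Fas fell 18.7-fold, from 14.7 ± 0.810 to 0.787 ± 0.117 CPM (SD, n = 3), and the 1.05-fold fall of Tnfrsf10b did not pass under 11 of 16 other settings. Pmaip1, the gene of the BH3-only protein NOXA, was listed at 0 in every library, where 3 counts equal 0.0432 to 0.0539 CPM. Sco2, a gene for cytochrome oxidase assembly that most cells use, was also listed at 0 throughout, so a 0 in this table may not show the level.

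All 12 tested genes of repair, metabolism and antioxidant defence were called, 9 higher and 3 lower, at a median log2 change of 0.24, beside 49.9% called among all genes. Without replicate 3 of both genotypes 6 were higher and 2 lower. Ephx1, which encodes microsomal epoxide hydrolase, rose 4.14-fold from 4.74 ± 0.183 to 19.7 ± 0.0793 CPM (SD, n = 3; edgeR adjusted p = 4.44e-27). Rev3l, which encodes the catalytic subunit of a translesion polymerase, rose 1.37-fold. Gadd45a, a DNA damage-inducible growth arrest gene, fell 1.86-fold from 13.4 ± 0.498 to 7.21 ± 0.305 CPM (SD, n = 3; edgeR adjusted p = 7.83e-14). Gls2, which encodes a glutaminase, fell 1.64-fold, and the 1.08-fold fall of Polk was lost under 6 of 16 other settings. The calls of Tigar and Ddb2, both higher, were lost under 7 of 16 and 6 of 15.

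Of 18 feedback, growth and signalling targets 9 rose and 6 fell, at a median log2 change of 0.092, beside 49.9% of all genes called. Btg2, an antiproliferative gene, rose 1.996-fold from 5.37 ± 0.485 to 10.7 ± 0.570 CPM (SD, n = 3; edgeR adjusted p = 2.07e-13). Epha2, an ephrin receptor gene, and Ptpn14, a phosphatase gene, each rose 1.34-fold, and the transcriptional repressor gene Bcl6 fell 1.31-fold. Over all genes tested the median was -0.0053 and 49.9% were called, against which each list's count is to be read. Among the 10507 genes with a mean of at least 5 CPM the share called was larger, at 3410 higher and 3524 lower. Most list genes are counted at such levels, so 49.9% is a low measure for them. No test compared a list with other genes.

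**Figure D4:**
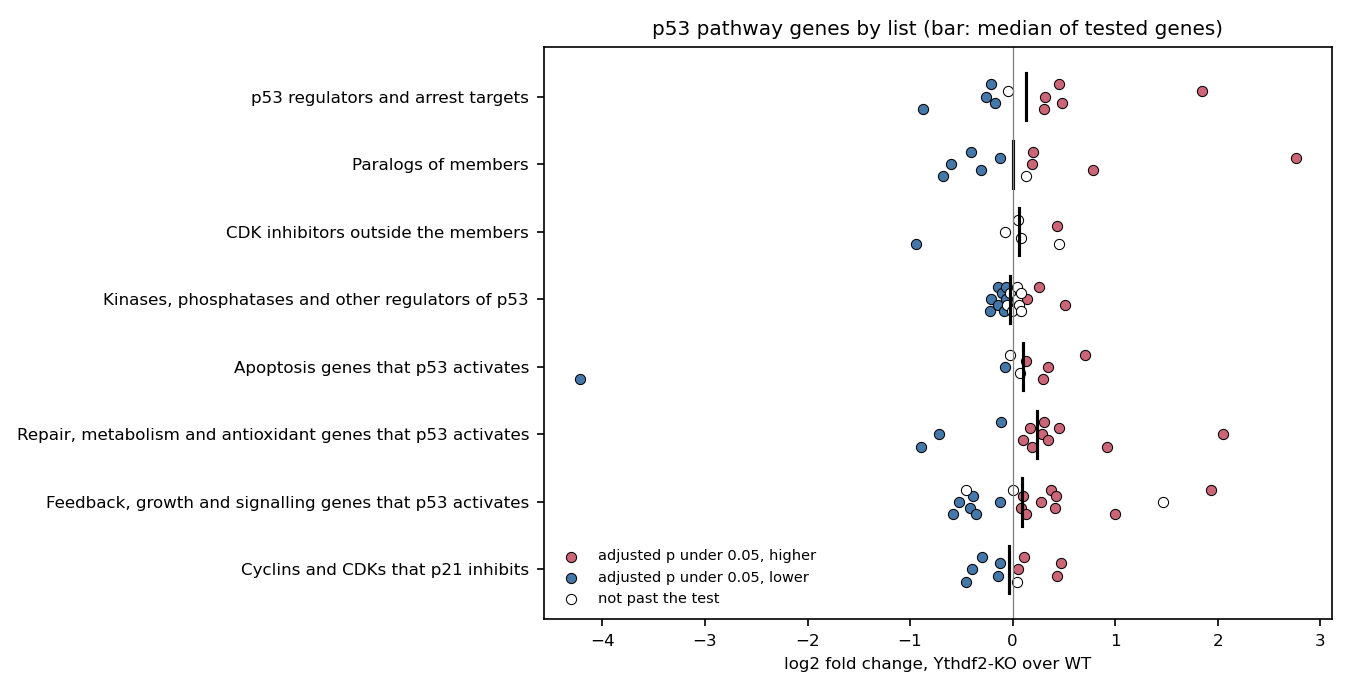
Fitted log2 fold change, Ythdf2-KO over WT (horizontal axis), of each tested gene by list; red and blue points passed at an adjusted p under 0.05 as higher or lower, open points did not, and black bars are list medians. Each list holds genes on both sides of 0, and the medians run from -0.040 to 0.24.

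The genes whose centred log2 CPM over the 6 libraries lay nearest to that of Cdkn1a were Peli1, Phf13 and Timeless, at Euclidean distances of 0.018, 0.037 and 0.045, with log2 fold changes of -0.26, -0.25 and -0.23. Those nearest to Mdm2 were Spef1, Fiz1 and Kdm8, at distances of 0.036, 0.038 and 0.045, none of which passed the test. These distances are a description over 6 libraries that share the genotype contrast. Genes picked by them have similar fold changes by construction, so those changes are no separate result.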

How the data were processed

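Polyadenylated RNA of 3 WT and 3 Ythdf2-KO libraries was read as paired ends after poly(A) enrichment, per the labels' protocols. Per the submitters' processing notes the tools were fastp 0.23.2, HISAT2 2.2.1 and featureCounts 2.0.6 with build GRCm39. The deposited values are whole counts per gene, with no normalization by the authors. How strand and multiply aligned reads were handled is "not given in the sources used here"; reads of overlapping and antisense genes therefore cannot be told apart.

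Counts were fitted in R 4.3.3 with edgeR 4.0.16 (filterByExpr, TMM, robust quasi-likelihood test, Benjamini-Hochberg over all 17718 genes tested). Levels are TMM-scaled CPM as mean ± SD. Alternatives were RLE and upper-quartile factors, scaling without abundant and mitochondrial genes, no filter and a mean of 5 CPM, DESeq2 1.42.0, limma-voom (limma 3.58.1), a replicate block, offsets for length and GC, a threshold of 0.01 and leaving out each library. Leaving out replicate 3 on both sides was chosen after seeing the data, as were levels per longest transcript. The fit was tested on simulated counts first. Exon lengths, overlaps and GC came from GENCODE M21 (GRCm38) by symbol, and promoters from RefSeq (GRCm38.p6). Figures used Python 3.11.15 and matplotlib 3.10.9.

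The members and lists were chosen with earlier results of these data known. The genes named were all 10 members, Ythdf2, the tested paralogs, in each other list the 4 smallest adjusted p-values and every called gene of a direction holding 5 or fewer, and the 3 nearest profiles (log2 CPM, prior count 2, no Gm or Rik symbols) each for Cdkn1a and Mdm2. Marker genes, Tigar, Ddb2, Cop1, Chek1, Npm1, Ep300, Rpl11, untested or overlapping genes and those in the closing observations were named after their values were seen. Protein, isoforms, m6A and p53 binding were not analysed here.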

Additional observations from a re-analysis of the deposited data

How the results depend on the processing

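The 17 other settings were 16 refits and the threshold of 0.01, which kept the estimates of the main fit. Of 170 values of the 10 members' changes under these settings, 168 kept their direction and their side of the threshold. The exceptions were Mdm2 with upper-quartile scaling, at a log2 fold change of 0.011, and Cdkn2a without Ythdf2-KO replicate 3. Leaving out libraries gave 0.22 to 0.42 for Cdkn2a, and the cause was not tested. Members called numbered 5 higher and 4 lower under each setting except without that library, where 4 were higher. Counts over all genes stayed within 1.5 times of 4270 higher and 4569 lower. With the replicate block 4132 genes were higher and 4409 lower, and the members' counts were 5 and 4. Deviations of same-numbered libraries from their genotype means had correlations of 0.011, -0.037 and -0.052 over all genes tested. With means of 3 libraries this cannot decide whether same-numbered libraries were handled together. List counts moved by over 1.5 times in 21 of 238 recounts. Of these 12 took the lower apoptosis genes from 2 to 1, 4 took the higher CDK inhibitors from 1 to 2 or 3, 4 the higher p53 regulators from 3 to 5 or 6, and 1 the lower ones from 8 to 3. Depth limits genes of few counts such as Trp63, with 0 to 17 per library.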

Other observations

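Trp53cor1, a long noncoding RNA that lies next to Cdkn1a in the mouse and is known as a p53 target, was higher in Ythdf2-KO while Cdkn1a was lower. It held 10, 19 and 9 counts in WT replicates 1 to 3 and 35, 52 and 40 in Ythdf2-KO, with a log2 fold change of 1.67 ± 0.39 (SE, n = 3 per group; edgeR adjusted p = 3.23e-04). Its WT counts alone would not have met the filter for testing, so the call is a description.

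Besides Cdkn1a and Ccng1, 5 tested genes had a promoter window with at most 1 letter off the p53 response element. Mthfd1, a folate enzyme gene, and Sptbn4, a spectrin gene whose window matched with 0 letters off, were higher, with log2 fold changes of 0.19 and 0.46. Calhm2 and Gtse1, the latter known to encode a protein that binds p53 in G2, were lower, at -0.19 and -0.17. Rps27l, a known p53 target, was at -0.013 and did not pass (edgeR adjusted p = 0.790). The 7 genes were thus 3 higher, 3 lower and 1 not called, and of 11381 tested genes with a window 3199 were higher and 3412 lower.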
